A study of Mus musculus with 15 samples.

Results

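The mevalonate arm of cholesterol synthesis was followed here through 8 genes that act between acetyl-CoA and squalene: Acat2, Hmgcs1, Mvk, Pmvk, Mvd, Idi1, Fdps and Fdft1. They were taken by symbol from a table of 35540 genes, and 8 of 8 passed the count filter, as did 13916 genes in all. Bulk RNA from mouse liver was sequenced as 15 libraries, 5 per genotype: wild type (WT), Txnip carrying the C247S change (C247S KI, a knock-in) and Txnip knockout (KO). Every group had been on a high-fat diet for 8 weeks, so no library shows the pathway on another diet. TXNIP, the thioredoxin-interacting protein, binds thioredoxin and restrains glucose uptake, and the C247S change puts serine in place of the cysteine through which it binds thioredoxin. The sources used here do not give strain, sex, age, feeding state, the hour of collection or how the knockout was made. Nor do they say that the 5 libraries of a genotype were 5 animals, and p-values therefore describe the spread over libraries, which may be technical. The sample titles number the KO libraries in a series apart from the one that C247S KI and WT share. What these numbers mark is not given. Whatever goes with the series cannot be told apart from the knockout in either KO comparison.

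Cholesterol is built from acetyl-CoA. Thiolases join acetyl-CoA units, HMG-CoA synthase adds another, and the product is turned into mevalonate. Kinases and a decarboxylase turn mevalonate into isopentenyl diphosphate, an isomerase and a prenyl transferase make farnesyl diphosphate, and squalene synthase joins a pair of these into squalene. Farnesyl diphosphate also feeds protein prenylation, dolichol and ubiquinone. In liver the genes of the pathway are switched on together by SREBP2, a transcription factor that is released from the endoplasmic reticulum when membrane sterols are low; INSIG proteins hold it back.

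SREBP2 is known to act on promoters together with NF-Y and Sp1, so the promoters were read first. Windows of 250 bases before and 50 bases after each start site (RefSeq, GRCm38.p6) were found for 6 of 8 members, and Fdps and Fdft1 had no entry. A sterol regulatory element consensus (TCACNCCAC, both strands) was found in 1 of 6, Hmgcs1, and in 1.24% of 32851 windows of the same length. The NF-Y box (CCAAT, both strands) was found in 5 of 6, all but Acat2, and in 37.4% of all windows. The Sp1 box (GGGCGG, both strands) was found in 5 of 6, all but Pmvk, and in 35.7% of all windows. Pmvk had a further window (chr3:89459321-89459620) without a match of any of the motifs. Members were counted by gene and the shares over all promoters by window, so the counts and shares are not on the same footing. No matches of the motifs overlapped each other in the members' windows. Of these promoters, 3 are printed 5′ to 3′ on the strand of the gene, without exon bases: Hmgcs1 (chr13:119690101-119690350, plus strand) for the sterol element, Mvk (chr5:114444061-114444268, plus strand) for its 5 NF-Y boxes, and Mvd (chr8:122443423-122443672, minus strand) as a member with NF-Y and Sp1 boxes and no sterol consensus. Capitals mark the matches, on either strand.
Hmgcs1: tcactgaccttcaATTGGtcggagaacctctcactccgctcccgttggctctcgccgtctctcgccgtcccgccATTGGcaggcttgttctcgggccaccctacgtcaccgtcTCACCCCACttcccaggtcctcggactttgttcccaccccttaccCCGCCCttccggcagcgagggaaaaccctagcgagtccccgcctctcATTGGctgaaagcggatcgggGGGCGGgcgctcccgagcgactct
Mvk: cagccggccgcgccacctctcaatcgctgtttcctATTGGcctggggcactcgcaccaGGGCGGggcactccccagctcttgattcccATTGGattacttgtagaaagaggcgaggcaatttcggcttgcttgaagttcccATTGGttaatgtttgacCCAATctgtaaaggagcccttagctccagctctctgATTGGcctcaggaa
Mvd: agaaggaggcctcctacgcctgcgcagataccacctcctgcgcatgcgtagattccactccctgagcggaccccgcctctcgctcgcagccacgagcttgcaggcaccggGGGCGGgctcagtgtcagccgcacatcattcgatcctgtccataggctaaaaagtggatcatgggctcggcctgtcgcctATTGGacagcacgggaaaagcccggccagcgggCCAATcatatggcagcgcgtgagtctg
The sterol consensus of Hmgcs1 lies at -137 to -129 from the RefSeq start. In the printed stretch, NF-Y boxes lie upstream of it, and Sp1 boxes and another NF-Y box downstream. Past the printed end, the window also holds an NF-Y box at 10 to 14 and an Sp1 box at 32 to 37. The Mvk window is shared with Mmab, a gene of vitamin B12 metabolism that is read in the other direction, and the exon bases of Mmab were left out of the printed stretch. A match is a stretch of letters and was not measured as a bound site.

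The libraries held 18047577 to 23379940 estimated counts. Txnip stood at 99.0 ± 24.9 CPM (counts scaled for library size; mean ± SD, n = 5) in KO, 192 ± 65.7 in C247S KI and 222 ± 56.2 in WT. It fell in KO against WT (log2 difference -1.17, SE 0.24, edgeR adjusted p = 0.00887) with no overlap. Txnip also fell in KO against C247S KI (-0.96, SE 0.24, edgeR adjusted p = 0.0182), but with overlap. C247S KI 3 stood at 99.9 CPM, inside the KO range of 70.9 to 123. Transcript estimates do not show which exons the remaining counts came from. Markers of liver cells were read beside the members. Hepatocyte markers (6 of 6 above 1 CPM) summed to 55044 to 77673 CPM in KO, 72507 to 122241 in C247S KI and 85622 to 103643 in WT. Adipocyte markers (Adipoq, Plin1, Lep, Retn) were under 1 CPM in every group, with Lep at 0 in KO, as were the T cell genes Cd3e and Cd3g of 5 lymphocyte markers. The B cell gene Ms4a1 fell in KO against WT (log2 difference -2.02, edgeR adjusted p = 0.0415; also DESeq2, not limma-voom), and the other 2 tested lymphocyte markers were lower there at an unadjusted p under 0.05.

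In KO livers, 7 of the 8 genes fell against C247S KI livers: Acat2, Hmgcs1, Pmvk, Mvd, Idi1, Fdps and Fdft1 (edgeR adjusted p under 0.05; 5.85% of all tested genes fell). The median of the 8 log2 differences was -1.93, beside -0.029 over all genes tested. WT lay between these groups for all members but Mvk, and against WT 0 of 8 passed the threshold in either group. Of all genes, 0.0862% passed in C247S KI against WT and 6.75% in KO against WT. At an unadjusted p under 0.05, 8 of 8 members were higher in C247S KI than in WT (5.66% of all genes), and 5 of 8 were lower in KO than in WT (12.8%). The other tools differed here: DESeq2 called 5 of 8 higher in C247S KI (Hmgcs1, Mvk, Pmvk, Fdps and Fdft1; 0.345% of all genes) and 1 of 8 lower in KO (Pmvk; 6.43%), while limma-voom called 0 of 8 in both (0.0575% and 3.61%). For KO against C247S KI, DESeq2 called 7 of 8 lower (7.48% of all genes) and limma-voom 6 of 8 (4.99%). The median member difference was 1.35 in C247S KI against WT, beside 0.0024 over all genes, and -0.58 in KO against WT, beside -0.0099. The comparisons share groups, so they are not independent of each other.

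**Figure D1:**
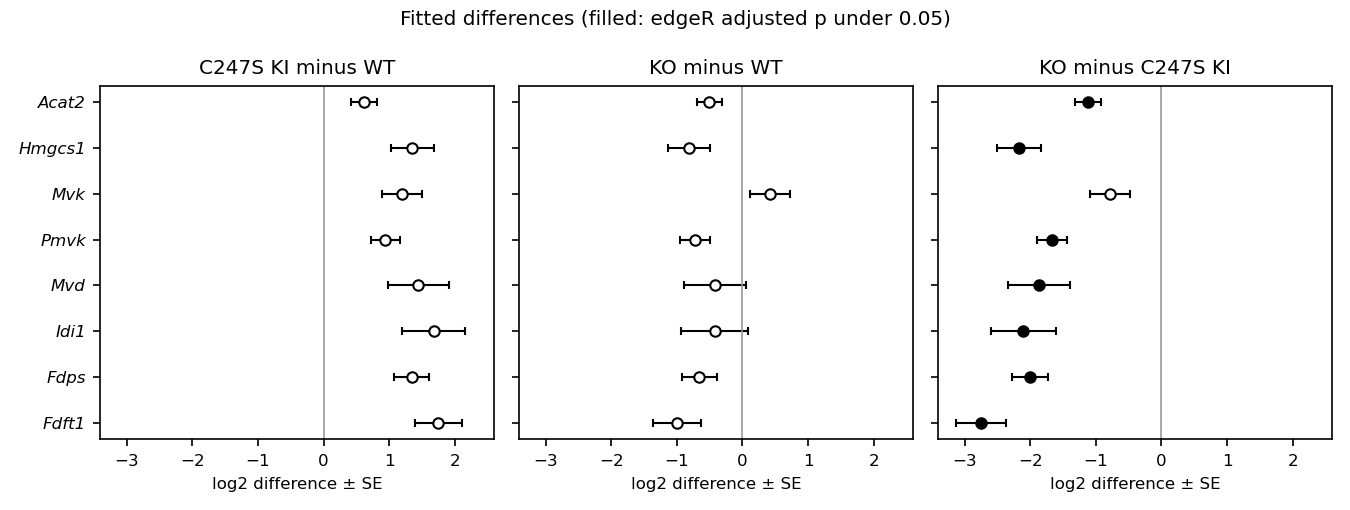
Log2 difference of each member in the 3 comparisons (edgeR, points with bars of 1 SE, filled where the adjusted p is under 0.05), with genes in pathway order. The KO against C247S KI points run from -0.78 (Mvk) to -2.75 (Fdft1); in KO against WT Mvk is the only member above 0.

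The first enzyme is the cytosolic thiolase ACAT2, which condenses acetyl-CoA units to acetoacetyl-CoA. Acat2 (ENSMUSG00000023832, chr17:12942890-12960747, minus strand, GRCm38) stood at 41.0, 62.4, 50.04, 55.1 and 48.5 CPM in WT 1 to 5, at 125.2, 69.3, 69.1, 47.1 and 82.5 CPM in C247S KI 1 to 5 and at 34.0, 40.6, 29.0, 39.4 and 38.2 CPM in KO 1 to 5. All 5 KO libraries lay below every library of the other groups, and C247S KI 4 lay inside the WT range. Acat2 fell in KO against C247S KI (log2 difference -1.12, SE 0.20, edgeR adjusted p = 0.00213), and the difference from WT was 0.61 (SE 0.20, adjusted p = 0.330) in C247S KI (0.38 without C247S KI 1) and -0.50 (adjusted p = 0.127) in KO. This gene is uncertain because 50.5% of the 31-base words of its main transcript also occur in Acat3, a near-identical neighbour that stood at 273 ± 23.2 CPM in KO, 212 ± 30.5 in C247S KI and 261 ± 22.5 in WT. With Acat2 and Acat3 summed, an alternative chosen after seeing the data, the levels were 309.7 ± 26.5, 290.3 ± 51.7 and 312 ± 23.1 CPM in the same order, and the KO against C247S KI difference was 0.093 (edgeR adjusted p = 0.664). Acat3 makes up most of that sum. Its own KO against C247S KI difference was 0.37, opposite in sign to that of Acat2 (edgeR adjusted p = 0.0518; called by DESeq2 and limma-voom), and the part of read division between the pair was not tested. Acat2 also shares 15.3% of its 31-base words, on the opposite strand, with Tcp1, which stood at 100 to 147 CPM. Whether reads were assigned by strand is not given.

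HMG-CoA synthase 1, the cytosolic enzyme that makes HMG-CoA for sterols, is encoded by Hmgcs1 (ENSMUSG00000093930, chr13:119690379-119708260, plus strand), the member with the sterol consensus printed above. In WT 1 to 5 it stood at 62.5, 150.1, 80.4, 87.2 and 89.7 CPM. The C247S KI libraries 1 to 5 held 381, 197, 233, 69.6 and 323 CPM, and the KO libraries 1 to 5 held 43.5, 55.1, 50.4, 57.7 and 60.2 CPM. C247S KI 1, 2, 3 and 5 lay above the whole WT range, C247S KI 4 lay near its lower end, and the KO libraries kept to a narrow band below both groups. Hmgcs1 fell in KO against C247S KI (log2 difference -2.17, SE 0.33, edgeR adjusted p = 0.000811). The difference from WT was 1.36 (SE 0.32, adjusted p = 0.183) in C247S KI and -0.82 (adjusted p = 0.129) in KO. The share of 31-base words that Hmgcs1 has in common with another gene was 15.6%, all in an antisense gene.

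Mevalonate kinase, which adds the first phosphate, was the member that stood apart. Mvk (ENSMUSG00000041939, chr5:114444269-114460591, plus strand) stood at 9.73, 11.8, 9.27, 7.91 and 7.07 CPM in WT 1 to 5. It stood at 19.5, 20.5, 43.2, 8.93 and 13.3 CPM in C247S KI 1 to 5 and at 9.07, 13.9, 11.1, 12.7 and 14.4 CPM in KO 1 to 5. C247S KI 3 was far above the other libraries, and the KO libraries overlapped both other groups, with 3 of them above the highest WT library. The KO against C247S KI difference was -0.78 (SE 0.30, edgeR adjusted p = 0.105), and the KO mean was above the WT mean with a log2 difference of 0.41 (adjusted p = 0.445), the opposite sign to the other 7 members. Without C247S KI 3 the KO against C247S KI difference was -0.35 (edgeR adjusted p = 0.280) and the C247S KI against WT difference 0.77, in place of 1.197 (SE 0.30, adjusted p = 0.245). Whether Mvk differed from the other members in its response was not tested. Mmab, across the shared promoter window, stood at 15.3 ± 2.16 CPM in KO, 16.5 ± 3.64 in C247S KI and 12.6 ± 4.15 in WT, with adjusted p of 0.548, 0.440 and 0.756 in C247S KI against WT, KO against WT and KO against C247S KI.

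Phosphomevalonate kinase adds the second phosphate. Pmvk (ENSMUSG00000027952, chr3:89454541-89469013, plus strand) stood at 18.5, 27.6, 23.4, 21.3 and 20.3 CPM in WT 1 to 5, at 70.2, 37.3, 39.9, 22.0 and 44.1 CPM in C247S KI 1 to 5 and at 10.5, 17.3, 11.6, 12.9 and 14.8 CPM in KO 1 to 5. All 5 KO libraries lay below all WT and C247S KI libraries. Pmvk fell in KO against C247S KI (log2 difference -1.67, SE 0.23, edgeR adjusted p = 0.000329). Against WT the KO difference was -0.73 (adjusted p = 0.0618) and the C247S KI difference 0.94 (SE 0.22, adjusted p = 0.183). No 31-base word of the main transcripts of Mvk, Pmvk or Mvd occurs in another gene.

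Mevalonate diphosphate decarboxylase makes isopentenyl diphosphate. Mvd (ENSMUSG00000006517, chr8:122433601-122443422, minus strand) stood at 2.69, 8.98, 2.85, 3.46 and 4.27 CPM in WT 1 to 5, at 14.9, 10.1, 23.7, 2.36 and 10.2 CPM in C247S KI 1 to 5 and at 1.61, 4.95, 2.43, 3.16 and 4.68 CPM in KO 1 to 5. WT 2 stood above the other WT libraries, and C247S KI 4 lay below all WT libraries while the other 4 lay above them. Mvd fell in KO against C247S KI (log2 difference -1.86, SE 0.47, edgeR adjusted p = 0.0194), but the groups overlapped. That call was lost with limma-voom (log2 difference -1.65, adjusted p = 0.0620) and with edgeR without KO 3 (-1.76, adjusted p = 0.0505) or KO 4 (-1.83, adjusted p = 0.0509), though the difference stayed close in size. The difference from WT was 1.45 (SE 0.46, adjusted p = 0.330) in C247S KI and -0.41 (adjusted p = 0.643) in KO, and without WT 2 the latter was 0.032 (adjusted p = 0.979), and without KO 1 -0.23.

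The isomerase that makes the allylic partner, isopentenyl-diphosphate isomerase 1, had few counts. Idi1 (ENSMUSG00000058258, chr13:8885501-8892451, plus strand) had 6 to 154 estimated counts per library. It stood at 1.03, 1.92, 0.869, 0.981 and 1.98 CPM in WT 1 to 5, at 6.71, 3.56, 5.47, 1.57 and 4.60 CPM in C247S KI 1 to 5 and at 0.403, 1.11, 0.597, 2.70 and 0.305 CPM in KO 1 to 5. KO 4 lay above every WT library, and the remaining KO libraries lay below all C247S KI libraries. Idi1 fell in KO against C247S KI (log2 difference -2.10, SE 0.49, edgeR adjusted p = 0.0127). The difference from WT was 1.68 (SE 0.48, adjusted p = 0.288) in C247S KI and -0.42 (adjusted p = 0.661) in KO. The KO value moved with single libraries and was -1.15 without KO 4, -0.19 without KO 5, -0.22 without KO 1, -0.25 without WT 2 and -0.26 without WT 5. Of its 31-base words 31.9% occur in other genes, of which there are 1060. The pseudogene with most of them, Gm13502, was at 0 CPM in all libraries. Gm35570 shares 9.68% in the same orientation and was at 0.10 to 1.81 CPM, which is near the level of Idi1 in WT and KO. The part of shared reads in the Idi1 values was not tested.

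Farnesyl diphosphate synthase makes the last intermediate that sterols share with prenyl groups and dolichol. Fdps (ENSMUSG00000059743, chr3:89093588-89101959, minus strand) stood at 81.7, 209, 134.6, 110.3 and 151.8 CPM in WT 1 to 5. The C247S KI libraries 1 to 5 held 473, 347, 419, 184.8 and 320.0 CPM, and the KO libraries 1 to 5 held 51.6, 102, 77.2, 87.3 and 117 CPM. Every KO library lay below every C247S KI library, and C247S KI 4 was the only library of its group inside the WT range. Fdps fell in KO against C247S KI (log2 difference -2.001, SE 0.28, edgeR adjusted p = 0.000335). The difference from WT was 1.34 (SE 0.27, adjusted p = 0.0849) in C247S KI and -0.66 (adjusted p = 0.144) in KO. The value may hold reads of near-identical copies, since 85.7% of the 31-base words occur in other genes. Of the 8 genes that share words, Gm3571, Gm5873 and Gm8163 were at most 0.520 CPM in any library. The overlapping gene model Gm43738 had no row of its own among the matched transcripts, and the levels of the other sharing genes were not read.

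Squalene synthase commits farnesyl diphosphate to sterols. Fdft1 (ENSMUSG00000021273, chr14:63145150-63179578, minus strand) stood at 14.5, 51.4, 24.2, 19.3 and 22.1 CPM in WT 1 to 5, at 122, 83.3, 113.6, 30.96 and 93.8 CPM in C247S KI 1 to 5 and at 6.85, 11.1, 18.03, 14.2 and 15.9 CPM in KO 1 to 5. WT 2 stood far above the other WT libraries, and all KO libraries lay below all C247S KI libraries. Fdft1 fell in KO against C247S KI (log2 difference -2.75, SE 0.38, edgeR adjusted p = 0.000327), the largest fall of the 8. The difference from WT was 1.75 (SE 0.36, adjusted p = 0.0952) in C247S KI and -0.997 (adjusted p = 0.104) in KO, and without WT 2 the latter was -0.59 (adjusted p = 0.306). Of the 31-base words of its main transcript, 47.5% occur in other genes. It shares 26.2% of them, on the opposite strand, with Ctsb, a lysosomal protease gene at 318 to 746 CPM whose exons overlap it by 774 bases. Gm6781 shares 21.3% in the same orientation and was at most 0.0577 CPM in any library. The sources used here do not say whether reads were assigned by strand.

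**Figure D2:**
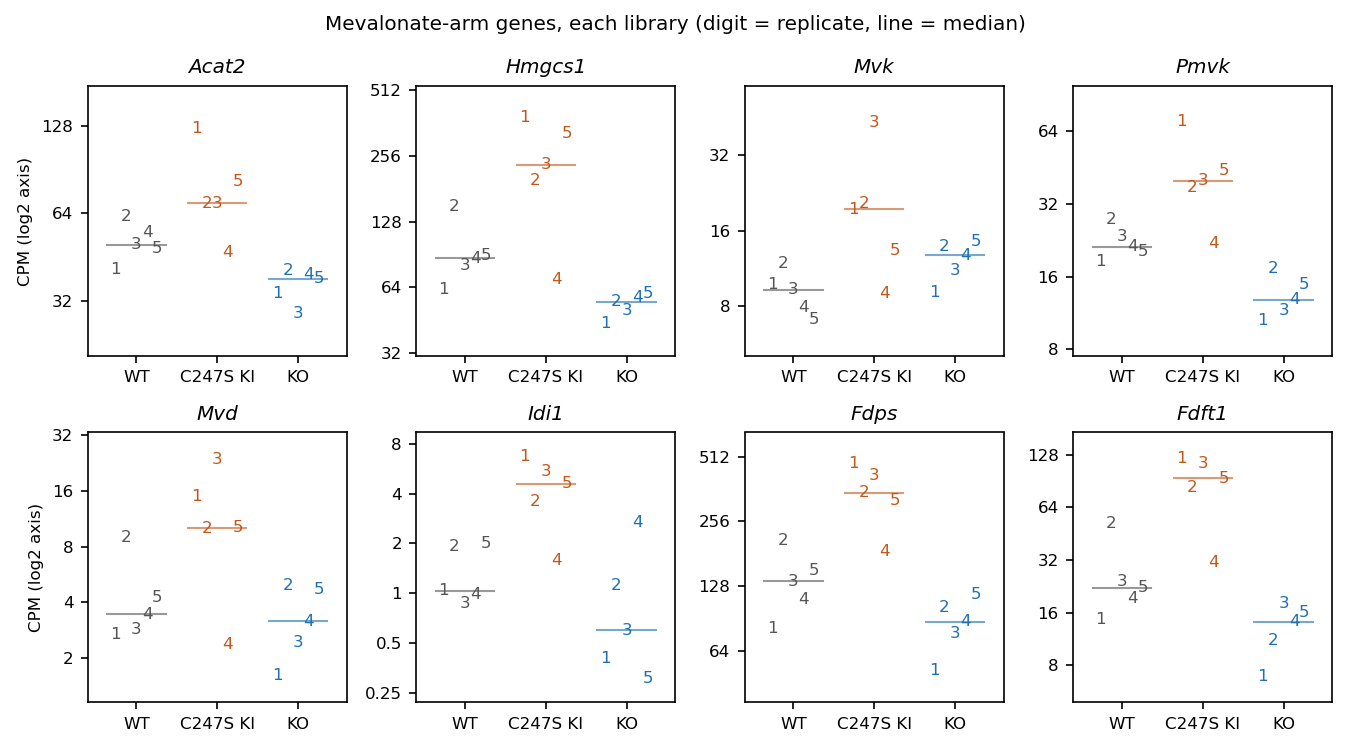
CPM of each member in each library (digits give the replicate; log2 axis), with a line at the group median, for the 5 WT, 5 C247S KI and 5 KO libraries. For Acat2, Hmgcs1, Pmvk, Fdps and Fdft1 the KO and C247S KI libraries do not overlap; for Mvk, Mvd and Idi1 they do.

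The groups did not overlap for 5 of 8 members in KO against C247S KI (Acat2, Hmgcs1, Pmvk, Fdps and Fdft1; 4.94% of all genes were lower without overlap). In KO against WT they did not overlap for 3 of 8 (Acat2, Hmgcs1 and Pmvk; 5.09%). Against WT, no member of C247S KI was free of overlap (0.726%), and C247S KI 4 lay inside or below the WT range for each. C247S KI 1, 2, 3 and 5 lay above the whole WT range for 8 of 8 members, whereas C247S KI 4 lay inside it for 7 and below it for Mvd. The mean log2 deviation of the 8 members from the WT mean was -0.011 in C247S KI 4, where single members ran from -0.74 (Mvd) to 0.50 (Fdps), and 1.18 to 1.82 in the other C247S KI libraries. It was -0.40 to 0.65 in WT and -1.07 to -0.24 in KO. Within WT the libraries ranked alike for most members, with WT 2 highest for 7 of 8 and WT 1 lowest for 6 of 8. Within KO, KO 1 was lowest for 6 of 8.

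**Figure D3:**
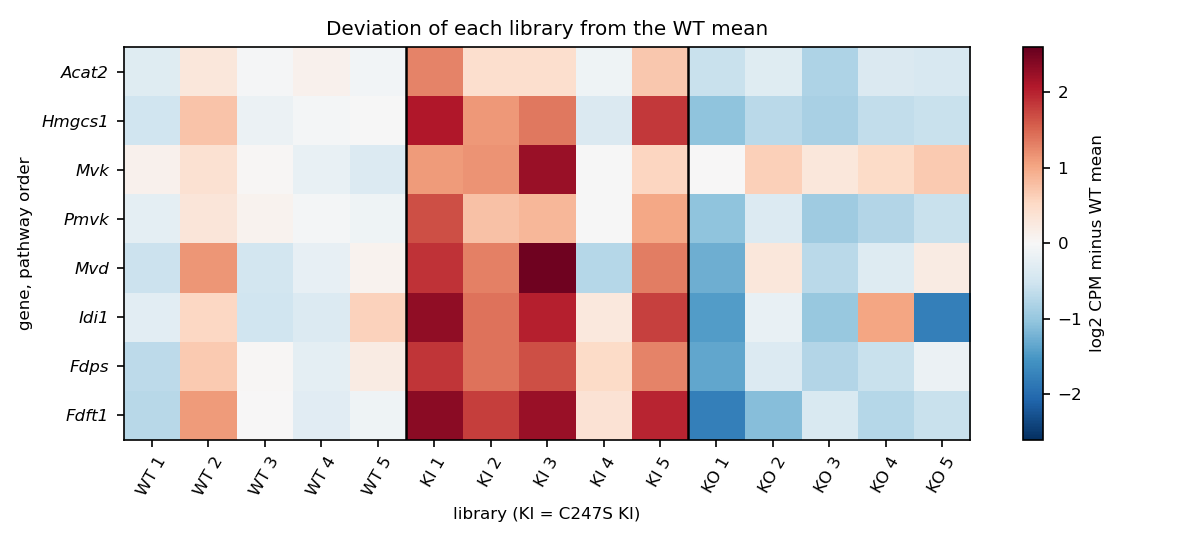
Log2 deviation of each member (rows) in each library (columns) from the member's WT mean. C247S KI 4 deviates in both directions, from -0.74 (Mvd) to 0.50 (Fdps), with a mean over the 8 genes of -0.011, while the other C247S KI libraries are above it for every member.

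Without C247S KI 4, edgeR called 5 of 8 members higher in C247S KI than in WT (Hmgcs1, Mvk, Pmvk, Fdps and Fdft1; 0.135% of all genes), and Mvk also passed in KO against C247S KI (log2 difference -0.97, adjusted p = 0.0338), whereas without C247S KI 3 its difference shrank as given above. Without WT 2 it called Fdps and Fdft1 (0.0924%). Other measures moved with these libraries and groups. An index of circadian clock genes, a mean log2 difference that rises with Dbp and falls with Arntl, was 0.20 in C247S KI 4, 1.38 to 1.82 in the other C247S KI libraries, 1.42 to 2.53 in WT and 2.53 to 3.46 in KO, with WT 2 the highest WT library. With this index as a covariate, 6 of 8 members passed in C247S KI against WT, where 0.172% of all genes were called higher. In KO against C247S KI 5 of 8 passed, where 0.287% of all genes were called lower. Acat2 (log2 difference -1.62, SE 0.34, adjusted p = 0.0537) and Idi1 (-3.13, SE 0.89, adjusted p = 0.204) no longer passed, with larger differences and larger errors than without the index. The index was highest in KO, with almost no overlap with WT, so its part and that of the KO cannot be told apart. C247S KI and WT overlapped in the index. Within their groups, C247S KI 4 was lowest and WT 2 highest in both the index and the members' mean deviation. Between groups the order differed, as KO had the highest median index and the lowest median of that deviation.

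Cholangiocyte markers were also lower in KO than in C247S KI. Their summed level was 25.5 to 38.0 CPM in KO, 46.5 to 121 in C247S KI and 34.7 to 53.3 in WT, and Spp1 held most of the mean sum in each group. By edgeR, 2 of 5 (Sox9 and Spp1) fell in KO against C247S KI, where 5.85% of all genes fell, and DESeq2 also called Epcam. Against WT, 0 of 5 were called by edgeR, DESeq2 or limma-voom in either group. At an unadjusted p under 0.05, 3 were higher in C247S KI than in WT and 1 was lower in KO than in WT. Of 6 hepatocyte markers, Alb (log2 difference -0.80, edgeR adjusted p = 0.0218) and Fgb (-0.998, adjusted p = 0.0407; not called by limma-voom) fell in KO against C247S KI, while Serpina1c (0.62, adjusted p = 0.0912; called by DESeq2) and Ttr (0.20, adjusted p = 0.482) had the opposite sign. Alb also fell in KO against WT (-0.80, edgeR adjusted p = 0.0294). Of 5 sinusoidal endothelial markers, Lyve1 fell in KO against C247S KI (-1.47, edgeR adjusted p = 0.00165) and in KO against WT (-1.41, adjusted p = 0.00348), and Pecam1 fell in KO against WT (-0.80, adjusted p = 0.00347). Stab2, Clec4g and Kdr had the opposite sign in KO, against C247S KI (0.51, 0.45 and 0.73) and against WT (0.31, 0.032 and 0.23). These 3 were not called by edgeR, DESeq2 or limma-voom. The summed level of the endothelial markers was 101 to 161 CPM in KO, 97.0 to 126 in C247S KI and 85.2 to 195 in WT. Stellate markers summed to 130.1 to 311 CPM in KO, 245 to 346 in C247S KI and 313 to 399 in WT, and 0 of 5 had an unadjusted p under 0.05 by edgeR, or were called by DESeq2 or limma-voom, in any comparison. Macrophage markers summed to 98.1 to 364 CPM in KO, 75.7 to 194 in C247S KI and 156 to 394 in WT, with 0 of 7 past the adjusted threshold by edgeR, DESeq2 or limma-voom in any comparison. At an unadjusted p under 0.05, 4 of 7 were lower in C247S KI than in WT and 1 was higher in KO than in C247S KI. The part of cell makeup in the members' differences was not tested, and in bulk liver fewer cells of a type and less RNA per cell cannot be told apart.

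Levels were compared between genes only per length, as TPM, which divides estimated counts by annotated transcript length. In WT the mean was 178 TPM for Fdps, 47.4 for Hmgcs1, 38.3 for Acat2, 29.8 for Pmvk, 16.1 for Fdft1, 9.65 for Mvk, 4.14 for Mvd and 0.803 for Idi1. Neighbours in this order overlapped over the 5 libraries, except Fdps with Hmgcs1 and Mvd with Idi1. In C247S KI the order was the same, from 445 TPM for Fdps to 2.77 for Idi1, and Fdps with Hmgcs1 was the only pair of neighbours without overlap. In KO the ends were also the same, at 99.6 TPM for Fdps and 0.537 for Idi1, but Acat2 (24.3) stood level with Hmgcs1 (24.2), and Mvk (11.9) stood before Fdft1 (7.92), with overlap in both pairs.

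**Figure D4:**
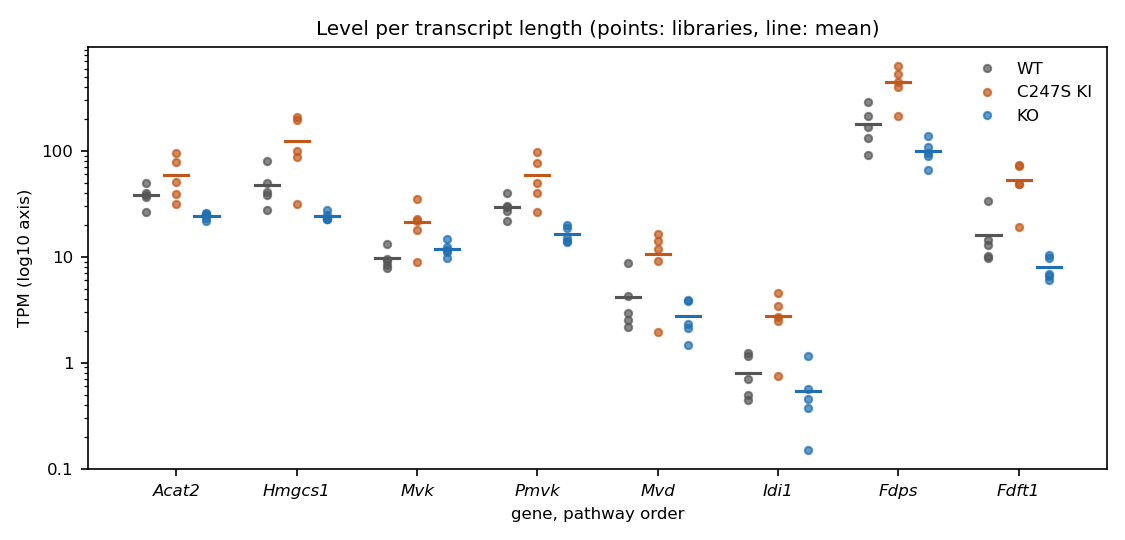
TPM of each member by group (log axis; points are libraries, lines the group means). Fdps is highest and Idi1 lowest in all 3 groups, and no Fdps library overlaps a library of the next gene in its group.

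Most of each gene's counts came from 1 transcript, from 76.4% for Mvk to 98.2% for Pmvk. For Acat2 the main transcript (ENSMUST00000007005) held 79% of the counts. It stood at 27.3, 65.7 and 38.0 CPM in KO, C247S KI and WT, while the second (ENSMUST00000233792) stood at 8.27, 7.68 and 11.5 CPM. These are estimates for transcripts that share most of their bases.

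The 11 genes from squalene to cholesterol fell for 9 of 11 in KO against C247S KI, with a median of -1.37 (5.85% of all genes fell). The lowest p-values were those of Dhcr7, the last reductase of one route to cholesterol (a log2 difference of -1.74), Sqle, which oxidises squalene (-3.33), and Hsd17b7, a sterol ketone reductase (-1.37). Against WT, 6 of 11 rose in C247S KI, Sqle by 2.70, Nsdhl by 1.55 and Hsd17b7 by 1.12 (0.0862% of all genes passed), whereas no mevalonate member passed. The median differences of the 2 lists there were 1.12 and 1.35, and whether the lists differ was not tested. In KO against WT, Tm7sf2 rose by 0.67 and Dhcr7 fell by 0.66, where 6.75% of all genes passed.

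The branch from farnesyl diphosphate to prenylation, dolichol and ubiquinone (14 genes) had medians of 0.052, 0.044 and 0.010 in C247S KI against WT, KO against WT and KO against C247S KI. In KO against C247S KI, 1 of 14 rose, Rabggta of the Rab prenylating enzyme (0.38). Another 1 fell, Nus1 of the dolichol-making enzyme (-0.36), where 5.85% of all genes fell. DESeq2 called the same genes there, beside 6.17% of all genes called higher and 7.48% called lower. The same 2 genes passed in KO against WT, with log2 differences of 0.42 and -0.38 (6.75% of all genes passed). Of the 14, 0 passed with edgeR in C247S KI against WT, and the lowest p was that of Pdss2, which makes the ubiquinone tail (-0.27, adjusted p = 0.457). DESeq2 and limma-voom also called 0, and 3 of 14 had an unadjusted p under 0.05, 1 higher and 2 lower.

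Among 11 genes of SREBP2 control and LDL uptake, 3 fell in KO against C247S KI, where 5.85% of all genes fell. Among them were Srebf2, which encodes SREBP2 (a log2 difference of -0.59), and Insig2 (-1.59). Insig2 was the only one to pass in KO against WT (a fall of 1.89 on the log2 scale), where 6.75% of all genes passed. Of the 11, 0 passed in C247S KI against WT, with the lowest p for Srebf2 (0.51, edgeR adjusted p = 0.121), which DESeq2 called and limma-voom did not. At an unadjusted p under 0.05, 3 were higher and 1 was lower. Of 4 genes that supply acetyl-CoA, Acss2 (-1.64) and Acly (-0.999) fell in KO against C247S KI, where 5.85% of all genes fell. Acss2 uses acetate and Acly uses citrate. Of these 4, 0 passed in C247S KI against WT (Acss2 0.998, edgeR adjusted p = 0.288; called by DESeq2 and not by limma-voom), and in KO against WT 0 of 4 passed by edgeR, DESeq2 or limma-voom (Acly -0.56, edgeR adjusted p = 0.112). In each, 2 of 4 had an unadjusted p under 0.05, higher in C247S KI and lower in KO.

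The genes outside the list whose levels most resembled the members' mean, after each group's own mean was taken out, were Cyp51 (Pearson r 0.957), Nsdhl (0.921), Metrnl (0.915), Sqle (0.897) and Ralgps1 (0.890), of 12287 genes over 15 libraries. These are descriptions, since all genes of a library share its depth and scaling. Each member's own r with the mean of the other 7 ran from 0.600 for Idi1 to 0.921 for Mvd. Cyp51, Nsdhl and Sqle act after squalene, and all 3 rose in C247S KI against WT.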

How the data were processed

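Bulk liver RNA of 15 mouse libraries was grouped by genotype from the sample titles. The authors' deposited values are estimated counts for each transcript, all whole numbers, made with kallisto 0.50.1 after Trimmomatic 0.39, per the submitters' processing notes, which also name DESeq2 and mm10; the sources used here do not name the transcript set. Reads shared by near-identical transcripts were thus divided before deposit. Transcripts were matched to GENCODE M21 (GRCm38) by identifier without version: 114331 of 115911 matched, and the 1580 others (0.366% to 0.459% of counts) were left out. Counts were summed per symbol, filtered (filterByExpr, minimum count 10, minimum total 15) and fitted over all 15 libraries by edgeR 4.0.16 (R 4.3.3; quasi-likelihood test after TMM scaling, Benjamini-Hochberg adjustment over 13916 genes, threshold 0.05). CPM used TMM-scaled library sizes, and SE was the log2 difference over the root of F. Precision was limited by spread between libraries, and for Idi1 by low counts as well.

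Alternatives included DESeq2 1.42.0, upper-quartile and RLE factors, limma-voom (limma 3.58.1), other filters, only the 2 groups compared, a replicate block, a clock index covariate (8 of 9 genes; Npas2 did not pass the filter), the removal of C247S KI 3, C247S KI 5 and WT 1 together, and leaving out each library. On simulated counts, 92% of 3-fold changes were recovered in each comparison, and 29% (13759 genes), 30% (13758) and 27% (13734) of 1.5-fold changes in C247S KI against WT, KO against WT and KO against C247S KI. Genes called in error numbered 13, 7 and 6 in the same order. The simulation held more changed genes than the 12 that edgeR called in C247S KI against WT, which eases the adjusted threshold. Its recovery therefore does not give the power of that comparison. Replicate numbers were checked and did not pair libraries. Members and lists were chosen with earlier results of these data known. From each list of pathway genes, up to 3 called genes with the lowest p were named, or the lowest p where none was called; marker genes, Mmab and the genes that share sequence, with Fgb, were named after their values were seen. Some genes that this rule covers are not reported here.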

Additional observations from a re-analysis of the deposited data

Results flagged for a closer look

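Of 24 member and group combinations, 2 had a library farther from the rest than Dixon's 95% critical value for 5 samples (0.71) allows, and both were WT 2. Mvd stood at 8.98 CPM in WT 2, the highest WT library. Fdft1 stood at 51.4 CPM in WT 2, also the highest WT library. Chance gives such a gap in about 1 in 20 groups. WT 2 was kept in all the main values.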

How the results depend on the processing

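The alternatives changed counts against WT most. In C247S KI against WT, where 0 of 8 members passed with edgeR, DESeq2 gave 5 (0.345% of all genes called higher), no count filter 2 (Fdps and Fdft1; 0.0687%) and the clock index covariate 6 (0.172%); leaving out 1 library gave 0 to 5. In KO against WT, DESeq2 gave 1 (6.43% of all genes called lower), fitting only the 2 groups 3 (Acat2, Hmgcs1 and Pmvk; 5.55%) and the clock index 2 (Pmvk and Fdft1; 0.525%), and leaving out 1 library gave 0. In KO against C247S KI the count stayed within 1.5 times the 7 called. It ran from 5 with the clock index (0.287% of all genes called lower) to 8 without C247S KI 4 (4.78%). Mvd was also lost with C247S KI 3, C247S KI 5 and WT 1 left out together (edgeR adjusted p = 0.0716). The direction turned for Acat2 in C247S KI against WT (-0.11) and in KO against C247S KI (0.093) with Acat3 added in, for Mvk in KO against WT with the clock index (-0.37, adjusted p = 0.734) and for Mvd in KO against WT without WT 2, the end of a range of -0.59 to 0.032 over libraries left out in turn; the causes were not tested. With the replicate number as a block the counts were 0, 0 and 7 (6.09% of all genes called lower in KO against C247S KI), so no count changed. Same-numbered libraries correlated at -0.141 to 0.381 and share only a number. Idi1 drops out with a mean count of at least 50. Depth limits Idi1 most, with 6 to 154 estimated counts per library.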
